A study of Rattus norvegicus with 24 samples.

Results

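The genes of fatty acid oxidation were examined in the lungs of rats that inhaled hexanal. The list held 44 genes of the mitochondrial and peroxisomal pathways, chosen by symbol, and a gene entered through an array probe whose RefSeq accession carried that symbol. Of the 44, 43 matched a probe and 42 were tested, among 21255 genes or unnamed probes tested in all. Acad10 matched no probe, and Acox2 was well above background on 0 of 24 arrays.

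Fischer-344 rats of 7 to 8 weeks inhaled hexanal vapor in a nose-only chamber for 4 h a day on 5 days a week. The control group breathed filtered clean air, and the low-dose, middle-dose and high-dose groups received 600, 1000 and 1500 ppm. Each group had 6 rats on the arrays, 3 males and 3 females, and each rat had its own one-colour array of total lung RNA. The length of exposure is uncertain, at 4 weeks in the published methods and 5 weeks in the sample labels, and the labels name the groups in ppm but write mg per cubic meter in the treatment text.

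Long-chain fatty acids are bound by small carrier proteins, activated to acyl-CoA and carried into mitochondria by the carnitine shuttle, where they are shortened step by step to acetyl-CoA. Electrons from the first step pass through the electron transfer flavoprotein, and peroxisomes shorten very long and branched chains. PPAR alpha and PPAR delta are nuclear receptors that bind fatty acids and switch on many of these genes. In lung, alveolar type II cells and macrophages handle large amounts of lipid, while heart muscle and brown fat burn fatty acids far more actively.

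Levels are the log2 signal minus the log2 of the 75th percentile of the same array, so that 0 is the 75th percentile, and levels are compared between rats for 1 gene and never between genes. All 42 members tested were well above background on all 24 arrays. The 75th percentile lay between 1700.87 and 3132.89 signal units over the arrays, and 70.66% to 81.74% of probes were well above background. Markers of alveolar type II cells were high on every array, with 5 of the 6 listed markers measured and a mean level between 5.52 and 6.06. The 10 heart muscle markers that were measured, out of 12 listed and 12 on the array, varied far more. Their mean level, called the heart marker level below, ranged from -4.00 to 0.65 in the control group, from -3.72 to 1.36 in the low-dose group, from -1.75 to 2.41 in the middle-dose group and from -3.76 to 2.39 in the high-dose group. The other 2, Nppa and Myl2, did not pass the background filter. The mean level of 7 fat cell markers lay between -4.19 and -3.02 in 21 rats and was -0.968, -1.37 and -0.975 in middle-dose rat 13 and high-dose rats 36 and 37. In whole lung RNA, more cells of a type and more RNA per cell cannot be told apart.

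No member passed an adjusted p-value of 0.05 at any dose compared with the control group. At 600 ppm, 2 of 42 members, both higher, passed an unadjusted limma threshold of 0.05, against 4.33% of all genes tested. At 1000 ppm, 3 members were higher at that threshold, against 8.99% of all genes, and at 1500 ppm 2 members were lower, against 6.97% of all genes. Over all genes, 0%, 0.0188% and 0.0047% had an adjusted p-value under 0.05 at the low, middle and high dose. With a fold change of at least 1.5 in addition to the unadjusted threshold, 0, 2 and 0 members were left at the 3 doses, against 0.616%, 1.64% and 1.22% of all genes. No member had a dose group lying wholly outside the range of the control group, which 0.274%, 0.454% and 0.482% of all genes had. At the unadjusted threshold alone, the shares of members lay near those of all genes.

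The median log2 fold change of the 42 members was -0.002 at 600 ppm, 0.069 at 1000 ppm and -0.024 at 1500 ppm, beside -0.001, 0.005 and 0.013 over all genes tested. Members were above control in 21, 29 and 18 cases, and below in 21, 13 and 24. The member median within a rat had an SD of 0.11 over the 6 control rats. That is the spread of single rats, which is wider than the error of a difference between means of 6 rats. The medians themselves were not tested. The 3 dose comparisons share their control rats and are not independent of each other.

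**Figure D1:**
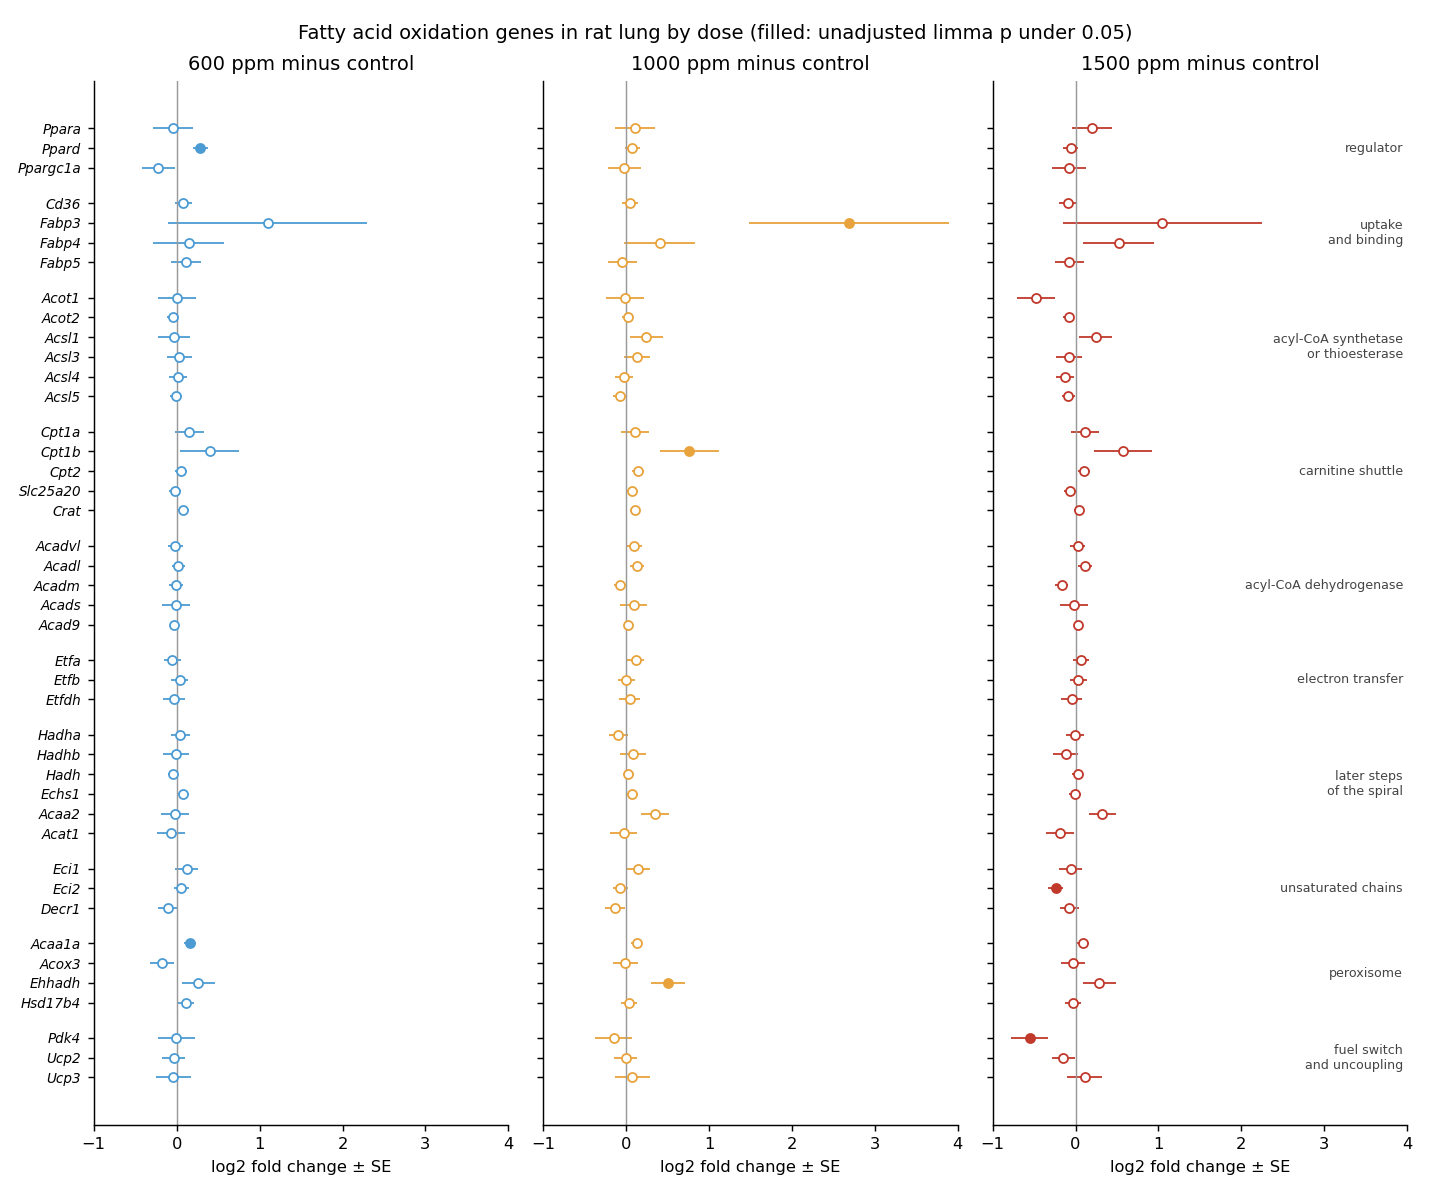
Log2 fold change (x axis, with the standard error of the limma fit) of 42 fatty acid oxidation genes, grouped by role, at 600, 1000 and 1500 ppm minus control, 6 rats a group. Filled points have an unadjusted p-value under 0.05 (2, 3 and 2 members); Fabp3 has the widest errors, and its change of 2.69 at 1000 ppm lies farthest from 0.

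The regulators were measured first. Ppara, which encodes PPAR alpha, ranged from -4.87 to -3.74 in the control group (median -4.67), from -4.98 to -4.11 at 600 ppm (median -4.68), from -5.00 to -4.16 at 1000 ppm (median -4.35) and from -4.98 to -3.26 at 1500 ppm (median -4.45). All 4 groups overlapped, and the log2 fold change at 1500 ppm was 0.20 with a standard error of 0.24. Ppargc1a, whose product PGC-1 alpha is a coactivator of mitochondrial genes, ranged from -3.55 to -2.38 in the control group (median -3.12), from -3.65 to -2.32 at 600 ppm (median -3.36), from -3.23 to -2.82 at 1000 ppm (median -3.05) and from -3.28 to -2.85 at 1500 ppm (median -3.18). The groups again overlapped, and the unadjusted limma p-value was 0.29 at 600 ppm and higher at the other doses.

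Ppard, which encodes PPAR delta, was higher in the low-dose group by the probe used, mainly in females. Its level ranged from -3.61 to -3.11 in the control group (median -3.34), from -3.16 to -2.96 at 600 ppm (median -3.08), from -3.43 to -3.12 at 1000 ppm (median -3.28) and from -3.66 to -3.14 at 1500 ppm (median -3.43). The 6 low-dose rats lay close together, and 3 of them were above every control rat, while the control range was wide because the 3 control females were all lower than the 3 control males. The log2 fold change was 0.29 with a standard error of 0.09, an unadjusted limma p-value of 0.00451 and an adjusted p-value of 0.997. A second probe for Ppard, also well above background on 24 arrays, gave 0.04 in the same comparison, so the probes disagree. Between the middle-dose and low-dose groups, with the slide as a block, Ppard was lower at 1000 ppm, with a difference of -0.24 on the log2 scale (unadjusted limma p-value 0.0246).

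Among the binding proteins, Fabp3 had the largest change of the list at each dose. It encodes the heart form of the fatty acid binding protein, which carries fatty acids to mitochondria in heart and skeletal muscle. It ranged from -5.53 to -0.75 in the control group (median -4.21), from -5.09 to 0.35 at 600 ppm (median -2.67), from -3.92 to 1.08 at 1000 ppm (median -0.28) and from -4.71 to 0.98 at 1500 ppm (median -3.04). Every group spanned several log2 units, and 4 of 6 middle-dose rats were above every control rat. The change at 1000 ppm was 2.69 on the log2 scale with a standard error of 1.20, a 6.45-fold difference, at an unadjusted limma p-value of 0.0355 and an adjusted p-value of 0.528. With the heart marker level in the fit, it was 0.11.

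Fabp4, the fat cell and macrophage form of the carrier, ranged from -2.94 to -1.88 in the control group (median -2.70), from -3.13 to -1.28 at 600 ppm (median -2.48), from -3.40 to -0.51 at 1000 ppm (median -2.07) and from -3.09 to -0.997 at 1500 ppm (median -2.18). The groups overlapped, and the 2 highest rats were middle-dose rat 13 and high-dose rat 37, both of which had a high fat cell marker level. Fabp5, the epidermal form, stayed between 3.41 and 4.50 in all rats, with group medians of 4.16, 4.21, 4.06 and 4.14 from control to 1500 ppm. Its log2 fold change was between -0.07 and 0.11 at the 3 doses. Cd36, the cell surface carrier of fatty acids, changed by 0.08, 0.05 and -0.10, none of which passed the unadjusted threshold.

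The enzymes that activate fatty acids or release them from coenzyme A had no member under the unadjusted threshold at any dose in the pooled groups. The 6 measured members ranged from -0.05 to 0.03 at 600 ppm, from -0.08 to 0.24 at 1000 ppm and from -0.47 to 0.24 at 1500 ppm. Acsl1, the main long-chain acyl-CoA synthetase of heart, fat and liver, ranged from 1.15 to 1.53 in the control group (median 1.31), from 1.03 to 1.42 at 600 ppm (median 1.30), from 1.20 to 1.96 at 1000 ppm (median 1.56) and from 0.95 to 2.42 at 1500 ppm (median 1.36). The high-dose group reached further both up and down than the control group. Acot1, a thioesterase that hydrolyzes acyl-CoA in the cytosol, had the lowest high-dose value of this role, at -0.47 with an unadjusted limma p-value of 0.0506. At 600 ppm its effect was -0.68 in males and 0.68 in females. That difference had an unadjusted limma p-value of 0.000825 and an adjusted p-value of 0.664.

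In the carnitine shuttle, Cpt1b had the largest change at 1000 ppm. Cpt1b, the muscle form of carnitine palmitoyltransferase 1, which commits acyl groups to mitochondrial oxidation, ranged from -1.18 to -0.35 in the control group (median -0.78), from -0.76 to 0.16 at 600 ppm (median -0.55), from -0.83 to 0.80 at 1000 ppm (median -0.09) and from -1.18 to 1.21 at 1500 ppm (median -0.64). Of the middle-dose rats, 3 of 6 were above every control rat, and the other 3 lay inside the control range. The difference at 1000 ppm was 0.76 on the log2 scale with a standard error of 0.35 (1.70-fold, unadjusted limma p-value 0.0423, adjusted p-value 0.543). Adding the heart marker level to the fit left 0.12. A second Cpt1b probe, well above background on 3 of 24 arrays and not used, gave 0.07 in this comparison.

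Cpt1a, the form of liver and most other tissues, ranged from 0.17 to 0.79 in the control group (median 0.40), from 0.02 to 1.06 at 600 ppm (median 0.60), from 0.25 to 1.14 at 1000 ppm (median 0.45) and from 0.43 to 0.75 at 1500 ppm (median 0.54). All groups overlapped, and the changes of 0.15, 0.10 and 0.11 were smaller than their standard error of 0.17. Cpt2, which passes acyl groups back to coenzyme A inside the mitochondrion, ranged from -0.24 to 0.02 in the control group (median -0.07), from -0.08 to 0.03 at 600 ppm (median -0.03), from -0.05 to 0.26 at 1000 ppm (median 0.04) and from -0.11 to 0.28 at 1500 ppm (median -0.06). At 1000 ppm 3 of 6 rats were above every control rat, and the log2 fold change was 0.15 (unadjusted limma p-value 0.053). The carrier Slc25a20 and the carnitine acetyltransferase Crat changed by at most 0.11.

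The acyl-CoA dehydrogenases, which take the first electrons from the chain according to its length, held no member under the unadjusted threshold in the pooled groups. The 5 measured ranged from -0.03 to 0.02 at 600 ppm, from -0.07 to 0.13 at 1000 ppm and from -0.17 to 0.11 at 1500 ppm. Acadm, the medium-chain enzyme, had the lowest value at 1500 ppm (-0.17, unadjusted limma p-value 0.0504). Acadl, the long-chain enzyme, ranged from 2.87 to 3.17 in the control group (median 2.99), from 2.84 to 3.15 at 600 ppm (median 3.04), from 2.95 to 3.37 at 1000 ppm (median 3.16) and from 3.00 to 3.40 at 1500 ppm (median 3.04). Groups overlapped, with 3 of 6 middle-dose rats above every control rat. Acadvl and Acads, the very-long-chain and short-chain enzymes, differed by 0.09 or less from control at each dose when the sexes were pooled. The 3 genes of the electron transfer flavoprotein and its dehydrogenase, Etfa, Etfb and Etfdh, changed by between -0.05 and 0.12.

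Among the later steps of the spiral, 6 members ranged from -0.06 to 0.08 at 600 ppm, from -0.10 to 0.34 at 1000 ppm and from -0.18 to 0.33 at 1500 ppm. Acaa2, the mitochondrial thiolase that splits off acetyl-CoA, had the highest values at 1000 and 1500 ppm. It ranged from 0.74 to 1.75 in the control group (median 1.34), from 0.57 to 1.63 at 600 ppm (median 1.31), from 1.19 to 1.84 at 1000 ppm (median 1.68) and from 1.40 to 1.72 at 1500 ppm (median 1.57). Only 1 middle-dose rat was above every control rat, and the log2 fold changes of 0.34 and 0.33 at 1000 and 1500 ppm had unadjusted limma p-values of 0.0523 and 0.0655. Echs1, the short-chain enoyl-CoA hydratase, ranged from 3.00 to 3.26 in the control group, from 3.12 to 3.39 at 600 ppm, from 3.11 to 3.38 at 1000 ppm and from 3.02 to 3.39 at 1500 ppm, with medians of 3.19, 3.22, 3.22 and 3.08. The ranges overlapped throughout.

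Eci2 was lower in the high-dose group. It encodes an isomerase that moves double bonds so that unsaturated chains can enter the spiral. The level ranged from 1.74 to 2.11 in the control group (median 1.81), from 1.77 to 2.05 at 600 ppm (median 1.97), from 1.64 to 2.10 at 1000 ppm (median 1.74) and from 1.52 to 1.78 at 1500 ppm (median 1.63). Below every control rat were 4 of 6 high-dose rats. The log2 fold change was -0.24 with a standard error of 0.09 (1.18-fold lower, unadjusted limma p-value 0.0145, adjusted p-value 0.607). The related Eci1 and Decr1 had -0.06 and -0.07 at this dose.

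Peroxisomal members included 2 of the higher values. Acaa1a, the peroxisomal thiolase, ranged from 2.86 to 3.00 in the control group (median 2.95), from 3.00 to 3.27 at 600 ppm (median 3.06), from 2.84 to 3.27 at 1000 ppm (median 3.09) and from 2.98 to 3.09 at 1500 ppm (median 3.03). At 600 ppm 5 of 6 rats were above every control rat, and the log2 fold change was 0.16 with a standard error of 0.07 (unadjusted limma p-value 0.0351, adjusted p-value 0.997). A second probe gave 0.15 in that comparison, close to the first.

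Ehhadh, the bifunctional enzyme of peroxisomal oxidation and a classical target of PPAR alpha in liver, ranged from -4.07 to -3.32 in the control group (median -3.68), from -3.95 to -2.77 at 600 ppm (median -3.45), from -3.38 to -2.91 at 1000 ppm (median -3.18) and from -3.70 to -2.78 at 1500 ppm (median -3.50). At 1000 ppm 5 of 6 rats were above every control rat. The log2 fold change was 0.51 with a standard error of 0.20 (1.42-fold, unadjusted limma p-value 0.0195, adjusted p-value 0.516). With another background correction, normexp, the value was -0.06, so the direction was not kept under that setting. Acox3 and Hsd17b4, which act on branched and very long chains, changed by between -0.18 and 0.11.

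**Figure D2:**
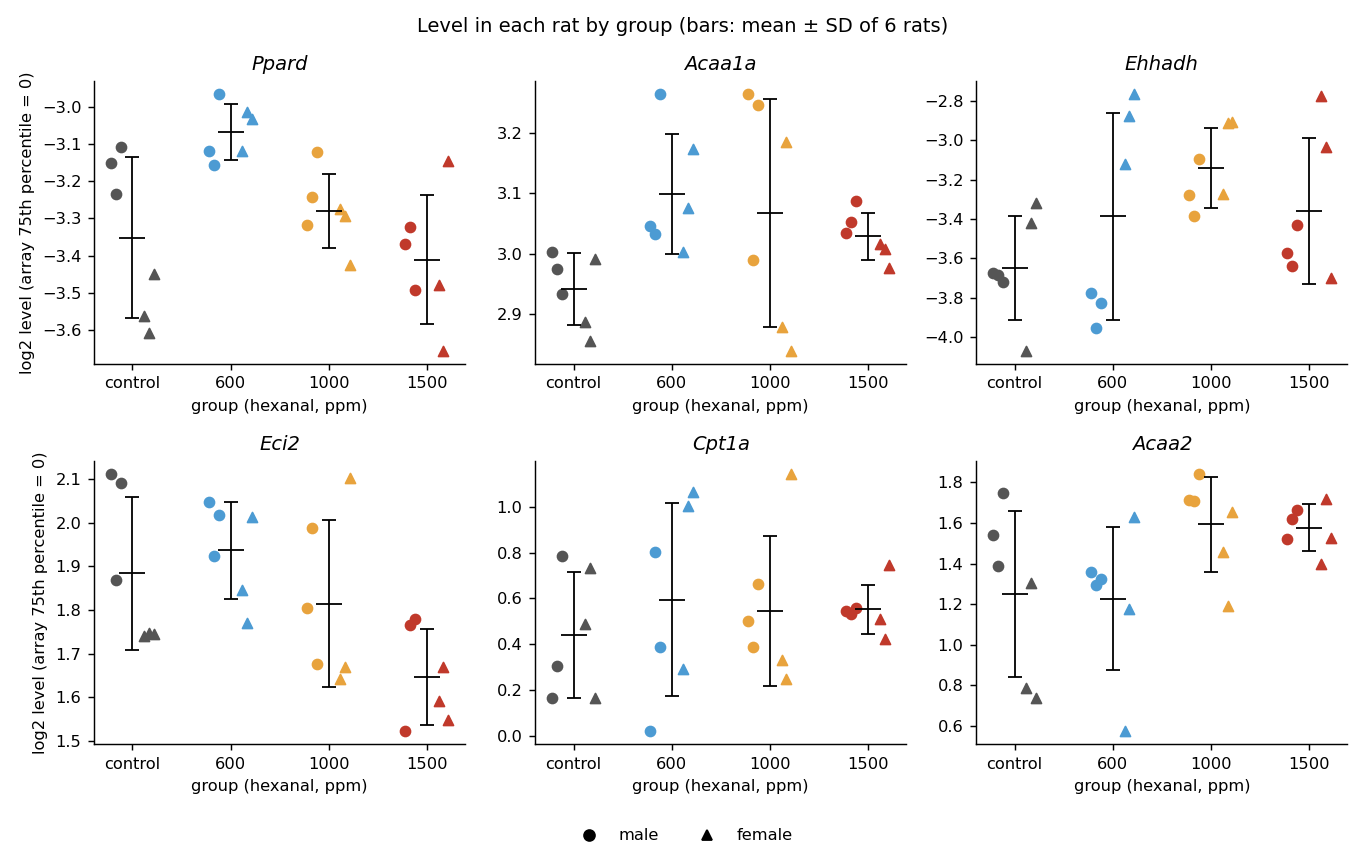
Level of 6 members (y axis, log2 with the 75th percentile of the array at 0) in each of 24 rats by group; circles are males, triangles females, and bars the mean ± SD of 6 rats. Every dose group overlaps the control group: 4 of 6 high-dose rats are below every control rat for Eci2, and 5 of 6 middle-dose rats are above every control rat for Ehhadh.

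Pdk4 encodes the kinase that shuts off pyruvate dehydrogenase and so turns cells from glucose to fatty acids. Its level ranged from -4.15 to -2.46 in the control group (median -3.29), from -3.52 to -3.18 at 600 ppm (median -3.37), from -3.76 to -3.15 at 1000 ppm (median -3.49) and from -4.38 to -3.57 at 1500 ppm (median -3.85). The control group was the widest, and 1 high-dose rat lay below it. The log2 fold change at 1500 ppm was -0.55 with a standard error of 0.22 (1.47-fold lower, unadjusted limma p-value 0.0209, adjusted p-value 0.653). Ucp2 and Ucp3, the uncoupling proteins of the inner mitochondrial membrane, had -0.15 and 0.11. Ucp2 ranged from 0.64 to 1.30 in the control group (median 0.98), from 0.73 to 1.18 at 600 ppm (median 0.95), from 0.60 to 1.18 at 1000 ppm (median 1.06) and from 0.58 to 1.21 at 1500 ppm (median 0.70).

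Spread between rats differed widely among the members. The SD within groups was 2.19 for Fabp3, at percentile 99.9 of all genes, 0.77 for Fabp4 and 0.64 for Cpt1b, while the median over the 42 members was 0.22 and over all genes 0.23. These 3 are the muscle or fat cell forms of their families. Against the heart marker level, with the dose group in the fit, 5 members had a slope with an adjusted limma p-value under 0.05, all positive, against 2.31% of all genes. Slopes were positive in 36 of 42 members with a median of 0.022 log2 per log2 unit, and over all genes the median was -0.008.

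Fabp3 had a slope of 1.00 on the heart marker level with a standard error of 0.06 (adjusted limma p-value 2.28e-11). In the rats at -2.43 or lower on that level it lay between -5.53 and -4.36, without a steady rise. Cpt1b had a slope of 0.25 with a standard error of 0.04 (adjusted limma p-value 0.000512), and Fabp4 had 0.24 with a standard error of 0.06 (adjusted limma p-value 0.0437). Acadl and Cpt2 had shallow slopes of 0.06 and 0.04, with adjusted limma p-values of 0.00298 and 0.0454. By role, both the carnitine shuttle and the binding proteins gave 2 of these members and the dehydrogenases 1. With the slide as a block Fabp3, Cpt1b and Acsl1 were under 0.05, against 0.532% of all genes, and without the 2 arrays farthest from the median heart marker level Fabp3, Cpt1b and Acadl were, against 0.856%. The slope of Fabp4 then had adjusted p-values of 0.158 and 0.0957, and that of Cpt2 0.302 and 0.110.

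**Figure D3:**
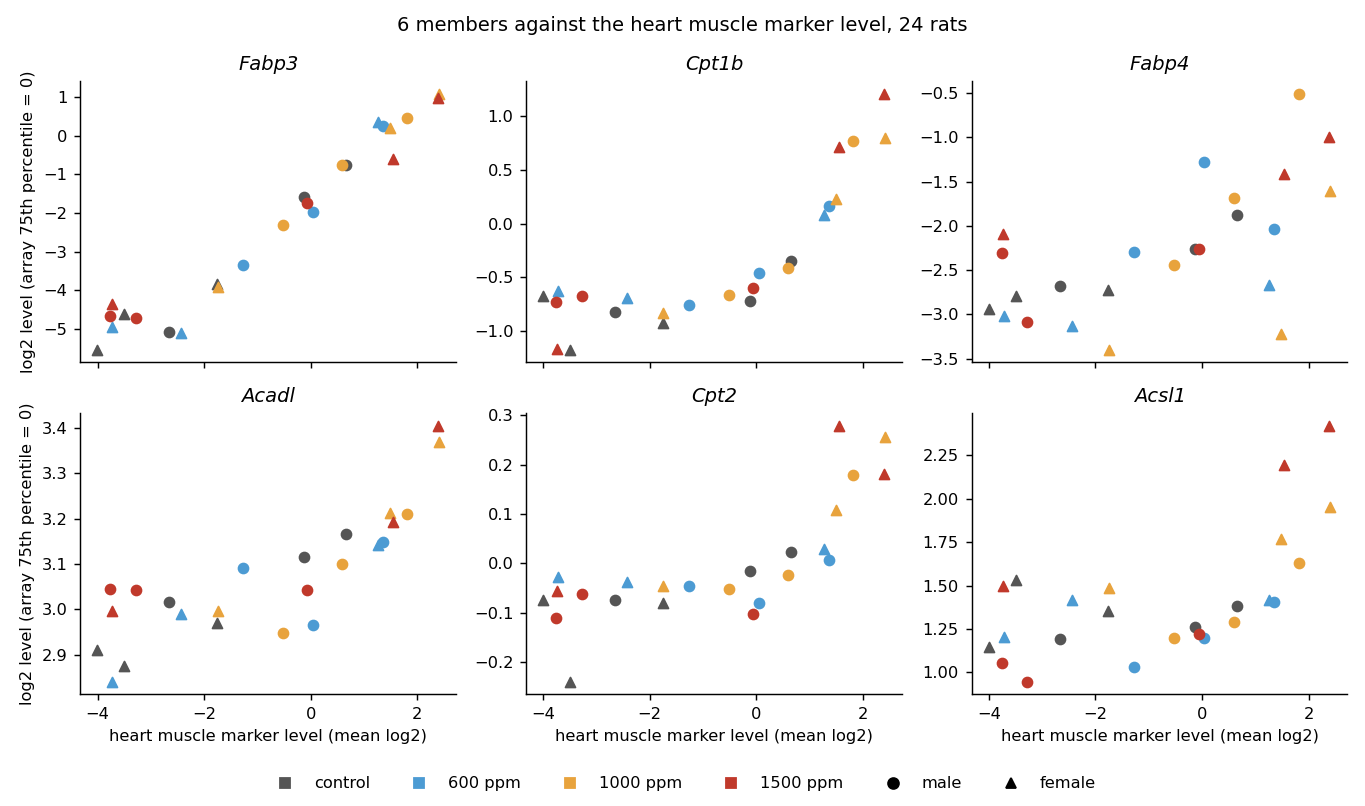
Level of 6 members (y axis, log2) against the mean log2 level of 10 heart muscle markers (x axis) in 24 rats, coloured by group, with circles for males and triangles for females. Fabp3 lies between -5.53 and -4.36 in the rats at a heart marker level of -2.43 or lower. It climbs to the right of them, and its fitted slope is 1.00. Cpt1b, Cpt2 and Acsl1 also stay level at low heart marker levels and are higher in the rats at the right end.

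The fat cell marker level gave 1 member with an adjusted limma p-value under 0.05 for its slope, Cpt1b (0.61, adjusted p-value 0.00821), against 0.16% of all genes; this test was chosen after the data were seen. Without middle-dose rat 13 and high-dose rats 36 and 37, the 3 rats of highest fat cell marker level, no member passed, and with the heart marker level as a further covariate none did either. The slope of Cpt1b was then 0.72 (unadjusted limma p-value 0.0733) and 0.36 (0.000863). Conversely, the heart slope of Cpt1b was 0.16 (adjusted p-value 0.0259) with the fat cell marker level in the fit. Leaving out those 3 rats gave 10 members with an adjusted p-value under 0.05 for the heart slope in place of 5, while the share of all genes went from 2.31% to 13.9%. Among the 10 were the thiolase Acaa2 (0.11), Hadhb of the trifunctional protein (0.11), and both isomerases Eci1 (0.08) and Eci2 (0.06), while Fabp4 and Cpt2 were no longer among them. Adding the heart marker level to the dose fits left 0 members under the unadjusted threshold at 1000 ppm, 2 at 600 ppm and 4 at 1500 ppm, against 7.22%, 5.53% and 8.41% of all genes. The part of heart or fat cell RNA in the dose values was not tested beyond these fits.

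The response to the high dose differed between the sexes for 3 members. In limma fits of 8 groups of dose and sex, the effect of 1500 ppm in females minus that in males had an adjusted p-value under 0.05 for Pdk4, Acadvl and Acads, which is 7.14% of the members, near the 5.02% of all genes. For 600 and 1000 ppm the number was 0 of 42, and 0% of all genes at both; 6 and 3 members passed the unadjusted threshold, against 4.99% and 9.41% of all genes. At 1500 ppm 13 members were under that unadjusted threshold, against 20.2% of all genes, and 12 of them had the higher effect in females, against 7.44% of all genes. Of the 42 differences 33 were positive, with a median of 0.24 on the log2 scale, beside -0.01 over all genes. This direction was not kept with the slide as a block, where 19 were positive and 23 negative, with a median of -0.09, and 2 members were higher and 4 lower at the unadjusted threshold, against 19.2% of all genes in either direction.

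Pdk4 was high in control males, at -2.46, -2.83 and -3.04, and at -3.98, -3.72 and -4.38 in high-dose males. In females the control rats were at -4.08, -4.15 and -3.53 and the high-dose rats at -3.57, -3.67 and -4.08. All 3 high-dose males were below every control male, whereas the females overlapped. The effect was -1.25 in males and 0.14 in females, a difference of 1.39 with a standard error of 0.26 (adjusted limma p-value 0.0046). With normexp background correction the difference was 0.45 (adjusted p-value 0.642).

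Acadvl, which opens the oxidation of the longest mitochondrial chains, was at 1.29, 0.95 and 1.23 in control males and at 0.84, 0.89 and 0.95 in high-dose males. Control females had 0.97, 0.95 and 0.93 and high-dose females 1.26, 1.44 and 1.1. High-dose males were all below the control males and high-dose females all above the control females. The effects of -0.26 and 0.32 differed by 0.58 with a standard error of 0.15 (adjusted limma p-value 0.0278).

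Acads, the short-chain enzyme, was at 2.17, 2.28 and 2.28 in control males and at 1.75, 1.72 and 1.74 in high-dose males. Its level was 1.97, 1.84 and 1.88 in control females and 2.63, 2.41 and 2.07 in high-dose females. As for Acadvl, the high-dose and control rats did not overlap in either sex, and the directions were opposite. Pdk4, Acadvl and Acads were picked by the test on these same values, so the separation adds no support to it. How many of all genes separate 3 against 3 rats in this way was not computed. The effects of -0.51 and 0.47 differed by 0.98 with a standard error of 0.27 (adjusted limma p-value 0.0415).

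**Figure D4:**
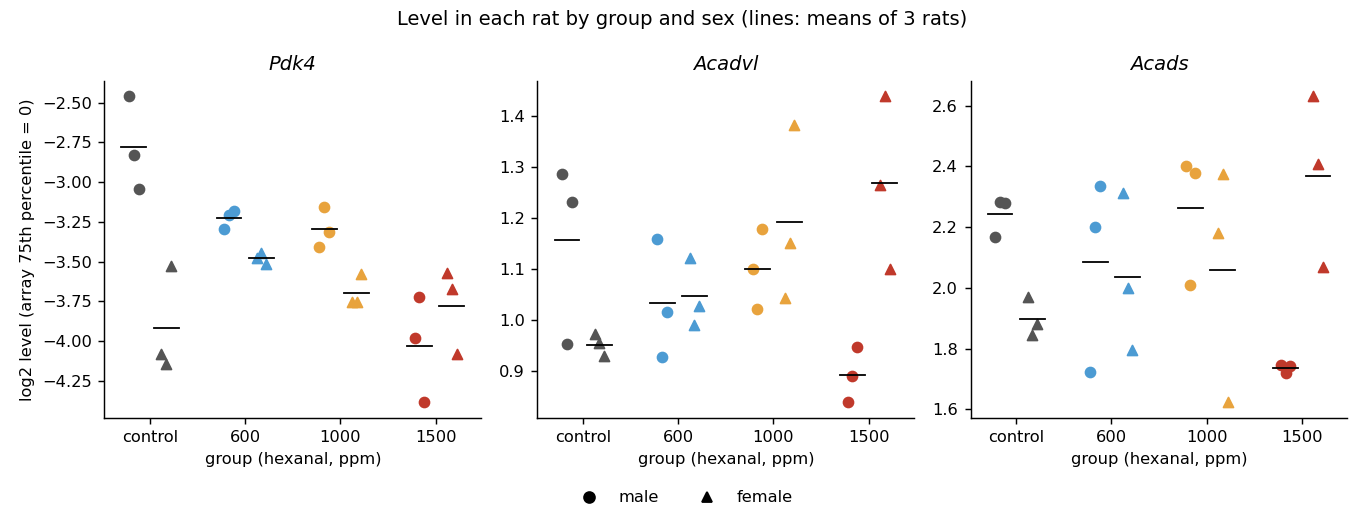
Level (y axis, log2) of Pdk4, Acadvl and Acads in each rat by group, with males as circles, females as triangles and lines for the means of 3 rats. In the high-dose group all 3 males lie below the control males for each gene, and the 3 females lie above the control females for Acadvl and Acads.

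Slide and sex bear on these values. The arrays lay on 6 slides of 4, each slide held rats of 1 sex, and control and high-dose rats of a sex were never on the same slide. With the slide as a block, 1 member kept an adjusted p-value under 0.05 in the sex difference at 1500 ppm, against 0.781% of all genes. This was Acads, with effects of -1.22 in males and 1.54 in females (adjusted limma p-value 0.018), a difference of 2.77 in place of 0.98. Pdk4 had a difference of 1.29 (0.308) and Acadvl of 0.34 (0.587). In this fit the high dose was tied to control through single rats on shared slides. Among them was middle-dose female 33, at 1.62 the lowest of its group for Acads. The heart marker level ranged from -3.76 to -0.07 in high-dose males and from -3.73 to 2.39 in high-dose females, against -2.66 to 0.65 in control males and -4.00 to -1.76 in control females. High-dose females 36, 37 and 38 had heart marker levels of 1.54, 2.39 and -3.73. They were at 1.26, 1.44 and 1.1 for Acadvl and at 2.63, 2.41 and 2.07 for Acads. A fit with the heart marker level as a covariate was chosen after the data were seen. In it the differences were 1.20 for Pdk4 (adjusted limma p-value 0.0267), 0.42 for Acadvl (0.118) and 1.1 for Acads (0.0529). Of all genes 3.47% were under 0.05. The part of heart muscle RNA in these differences was not tested beyond this fit. Without the 3 rats of highest fat cell marker level, rat 38 was the only high-dose female. That fit therefore cannot test the differences of Pdk4, Acadvl and Acads, and no p-values are given for them. In it Ppard had a difference of 0.63, against 2.5% of all genes with an adjusted limma p-value under 0.05.

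The promoters of these 3 genes are shown because the genes passed the test of the sex difference in the fit without slide or heart terms. Their share of the members was near that of all genes. Each window covers 300 bases around the gene start, read 5′ to 3′ on the gene's strand from RefSeq on the rat assembly GRCr8, at chr4:34568280-34568579 on the minus strand for Pdk4, chr10:55236656-55236955 on the minus strand for Acadvl and chr12:47154083-47154382 on the plus strand for Acads. Capitals mark AGGTCA, the hexamer that PPAR and related nuclear receptors recognize, on either strand.
Pdk4: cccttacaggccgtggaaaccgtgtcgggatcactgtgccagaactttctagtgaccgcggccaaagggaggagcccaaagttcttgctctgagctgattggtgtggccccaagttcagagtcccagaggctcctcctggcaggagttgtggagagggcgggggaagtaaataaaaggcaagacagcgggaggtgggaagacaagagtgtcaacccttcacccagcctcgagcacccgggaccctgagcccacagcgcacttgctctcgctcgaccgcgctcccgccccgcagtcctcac
Acadvl: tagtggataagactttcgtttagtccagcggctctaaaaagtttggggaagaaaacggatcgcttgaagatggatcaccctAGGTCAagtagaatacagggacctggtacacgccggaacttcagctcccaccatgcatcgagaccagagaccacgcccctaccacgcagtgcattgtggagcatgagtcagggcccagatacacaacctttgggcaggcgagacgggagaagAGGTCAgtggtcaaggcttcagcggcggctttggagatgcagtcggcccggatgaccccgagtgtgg
Acads: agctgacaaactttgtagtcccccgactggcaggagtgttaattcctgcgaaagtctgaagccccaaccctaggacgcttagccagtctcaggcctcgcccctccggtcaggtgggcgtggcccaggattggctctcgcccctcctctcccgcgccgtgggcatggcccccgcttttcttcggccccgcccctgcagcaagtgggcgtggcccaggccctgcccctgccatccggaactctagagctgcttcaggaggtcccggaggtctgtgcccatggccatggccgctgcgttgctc
The hexamer stood at 2 places in the Acadvl window and at none in those of Pdk4 and Acads. Promoters were found in the table for 37 of the 44 members, and 7 of these (18.9%) held AGGTCA on either strand, beside 5415 of all 33469 promoters (16.2%). The 7 were Acadvl, Echs1, Eci1, Eci2, Hadhb, Hsd17b4 and Ucp3. The repeat that PPAR binds with its partner, AGGTCA repeated after any 1 base, was found in 0 member promoters and in 18 promoters in all (0.0538%). These are letters in a window and say nothing of binding.

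Between the sexes over all doses, 7 members had an adjusted limma p-value under 0.05, against 24.9% of all genes. Higher in females were Ehhadh by 0.40, Acsl1 by 0.38 and Echs1 by 0.13 on the log2 scale, with means of -3.18, 1.62 and 3.26 in 12 females and -3.59, 1.23 and 3.13 in 12 males. Lower in females were Pdk4 by -0.39, Fabp5 by -0.34, Acaa2 by -0.30 and Ucp2 by -0.28. These values are averages over the groups, and their size was not steady. Pdk4 had means of -3.918 in control females and -2.777 in control males, but of -3.775 and -4.027 at 1500 ppm. The other members kept their direction in every group. In the control group Fabp5 was at 4.087 in females and 4.094 in males, and Acsl1 at 1.344 and 1.279. At 1500 ppm Acsl1 was at 2.038 and 1.074. With the slide as a random block, 0 members remained under 0.05, against 13.3% of all genes, with a lowest adjusted p-value of 0.0638 and 7 members under an unadjusted limma p-value of 0.05, against 28.8% of all genes. Since each slide held 1 sex, slide and sex can only be separated through the spread between slides of a sex.

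The slide also touched the dose values. With it as a block, 2 members passed the unadjusted limma threshold of 0.05 at 600 ppm, against 1131 of 21255 genes tested. They were Crat (0.174) and Decr1 (-0.317), while Ppard (0.234) and Acaa1a (0.084) no longer passed. At 1000 ppm the 3 that passed, against 793 of all genes, were Cpt1a, Crat (0.226) and Decr1 (-0.39). Cpt1b (0.583) and Ehhadh (0.343) no longer passed there. With the slide as a block, 1 of 42 members was under an unadjusted limma p-value of 0.05 at 1500 ppm, against 3.1% of all genes. This was Cpt1a, at -1.08 (unadjusted p-value 0.00232, adjusted p-value 0.983) in place of 0.11, and at 1000 ppm it was at -0.73 (0.00741) in place of 0.10. Of the 42 members, 33 were then below control at 1500 ppm, with a median of -0.18, while over all genes the median was 0.003. Fabp3, Cpt1b and Fabp4 turned from 1.05, 0.57 and 0.52 to -1.25, -0.41 and -1.29. In this fit the high dose was tied to control through single arrays that shared a slide with the next dose, and within the 2 slides that held 1000 and 1500 ppm, 29 of 42 members in females and 33 in males were lower at 1500 ppm, each against 1 middle-dose rat. The same counts over all genes were not computed. The middle-dose rats on these slides, 33 and 13, had heart marker levels of 2.41 and 1.81, the highest of their sex. Between 1000 and 600 ppm, which shared 2 slides, 2 members were under an unadjusted limma p-value of 0.05, against 4.07% of all genes, and both, Ppard and Cpt1a (-0.45), were lower at 1000 ppm.

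**Figure D5:**
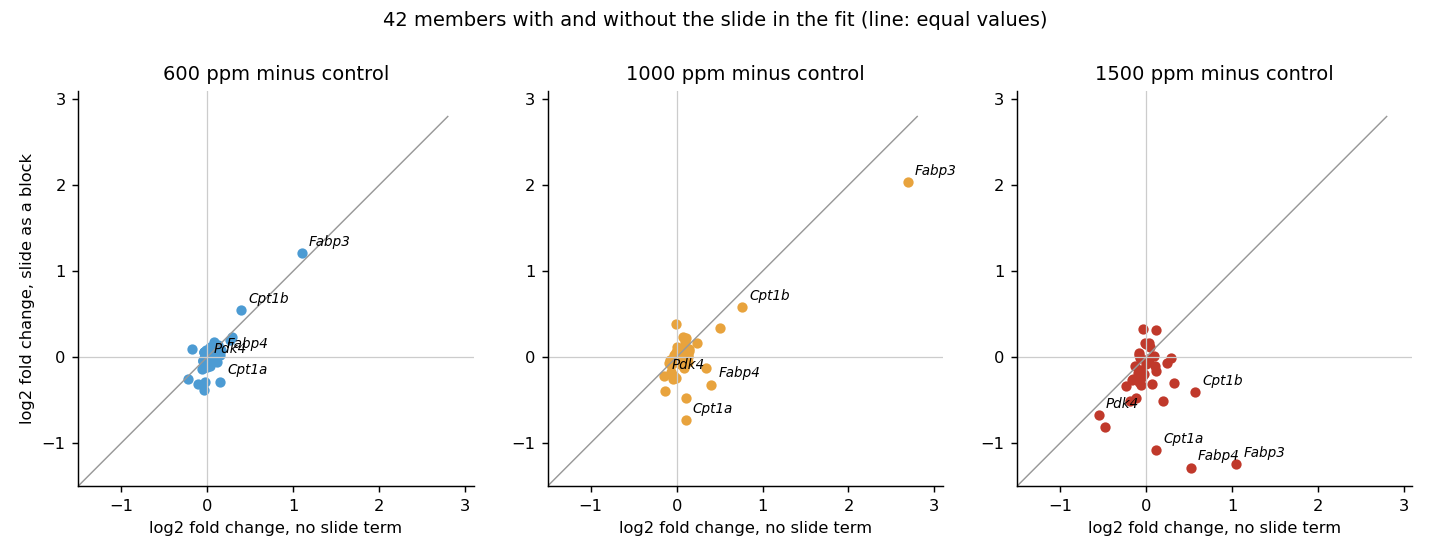
Log2 fold change of 42 members in a fit without the slide (x axis) and with the slide as a block (y axis), at 600, 1000 and 1500 ppm; the line marks equal values. At 1500 ppm most points lie below the line, with Fabp3, Fabp4 and Cpt1a farthest from it.

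Other genes of the pathway were measured for comparison. Of 67 listed, 62 were tested, and none had an adjusted limma p-value under 0.05 at any dose. The unadjusted limma threshold of 0.05 was passed by 1 gene at 600 ppm, by 6 at 1000 ppm and by 7 at 1500 ppm, beside the 4.33%, 8.99% and 6.97% of all genes. Slc22a5, the carnitine transporter of the cell membrane, was lower at all 3 doses, by -0.22, -0.26 and -0.22 (unadjusted limma p-values 0.0165, 0.00566 and 0.0149), which share the control rats.

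Genes of lipid stores and ketone bodies were among the rest. Lipe, the hormone-sensitive lipase, was at -0.50 at 1000 ppm and -0.37 at 1500 ppm, and Angptl4, a PPAR target that inhibits lipoprotein lipase, was at -0.38 at 1500 ppm. Oxct1, which lets tissues use ketone bodies, was at 0.27 at 1000 ppm. Acsm5, a medium-chain acyl-CoA synthetase, was at -0.54 at 1500 ppm. The high-dose group also had higher values of Ppargc1b, a relative of Ppargc1a, at 0.37 (unadjusted limma p-value 0.00194), and of Prkag2, an AMPK subunit, at 0.21. At 1000 ppm Pecr, a peroxisomal reductase, was at 0.42, Slc27a3 at 0.34 and Mlycd, which removes the CPT1 inhibitor malonyl-CoA, at 0.13.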

How the data were processed

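Lung RNA of 24 rats was measured on one-colour Agilent arrays. The deposited intensities are spot signals from Agilent Feature Extraction 11.5.1.1 (per the file headers), background-subtracted and detrended by the authors and not scaled between arrays; the table that the authors deposited for the series holds the same signals for at least 99.72% of values on each array, to within 1 part in 100. Spots of a probe were averaged without outlier flags, log2 was taken and the 75th percentile of the array subtracted. Of 30367 probes, 18355 (60.4%) were matched by accession to a symbol through the RefSeq table of GRCr8, used for names. A probe was used if it was well above background on 5 or more of the 6 arrays in some group (23616 probes), and a gene was represented by its brightest probe. A second probe that passed existed for 5 members.

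Groups came from the labels. R 4.3.3, limma 3.58.1 (lmFit, eBayes, Benjamini-Hochberg over 21255 genes) and version 1.17.8 of data.table were used, with figures from matplotlib. Contrasts were each dose against control, the dose effect in females minus males, females against males, 1000 against 600 ppm with the slide as a block, and the slope on the heart marker level. The scripts were tested on simulated data. The number of arrays limits the precision, and each array is 1 rat by its number in the labels.

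The members, gene lists and tests were chosen with earlier results of these data known. Members named with their range are those with an unadjusted p-value under 0.05 at a dose, the 3 largest changes at each dose, up to 6 each from the sex and heart slope tests, and Ppara, Ppard, Ppargc1a, Cpt1a, Cpt1b, Cpt2 and Pdk4. Of other pathway genes, up to 3 per list with an unadjusted p-value under 0.05 are named. The values of 1 of them are not reported here. Lists of markers of skeletal muscle (5 of 10 tested, mean level -4.03 to -1.39 over the rats), alveolar macrophages (4 of 6, -1.91 to -0.86) and endothelium (6 of 6, 1.92 to 2.48) were also measured. Alternatives were normexp background correction with offset 50, quantile normalization, array median scaling, the authors' table without scaling, a background filter on no array or on every array, the methods' t-test, control and 1 dose only, sex, slide and heart marker level as terms, every probe counted, and leaving out each rat.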

Additional observations from a re-analysis of the deposited data

Results flagged for a closer look

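Ppara stood at -5.00 in middle-dose rat 32, apart from the other 5 rats of its group, of which the next was at -4.47. Of 80 groups of 6 examined for the 20 members named with their range, 1 held such a rat, where chance gives about 1 group in 20.

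The effect of 1500 ppm differed between the sexes by an interaction test for 3 members, which is 7.14% of the members, near the 5.02% of all genes. The effect in females minus that in males was 1.39 on the log2 scale for Pdk4 (adjusted limma p-value 0.0046), 0.58 for Acadvl (0.0278) and 0.98 for Acads (0.0415). In males 3 of 3 high-dose rats were below every control rat for each gene. In females 3 of 3 were above every control rat for Acadvl and Acads, and 0 of 3 for Pdk4. The genes were picked on these same values. With the slide as a block the adjusted limma p-values were 0.308 for Pdk4, 0.587 for Acadvl and 0.018 for Acads, whose difference grew to 2.77. With normexp the adjusted p-value of Pdk4 was 0.642.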

How the results depend on the processing

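No dose comparison gave a member with an adjusted p-value under 0.05 under any alternative run, and the methods' t-test gave 0, 2 and 0 members at 1.5-fold and its unadjusted threshold and 0 after Benjamini-Hochberg. Members under the unadjusted threshold numbered 1 at 600 ppm with quantile normalization and with the authors' table without scaling, in place of 2. At 1000 ppm, in place of 3, there were 5 with the methods' t-test and with sex as a covariate and 0 with the heart marker level as a covariate. In place of 2 at 1500 ppm there were 4 with quantile normalization, the background filter on every array, the methods' t-test, sex, the heart marker level or without the 3 rats of highest fat cell marker level, and 1 with the authors' table or with the slide as a block. Acadm and Acot1 lie at the threshold there. The slide block moved the median at 1500 ppm to -0.183. Ppard at 600 ppm was 0.005 at its lowest among these settings. Ehhadh at 1000 ppm was -0.06 with normexp. The cause of these differences was not tested.

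For the sex difference at 1500 ppm, 1 member remained under 0.05 with the slide as a block and 1 with the heart marker level. Without the 3 rats of highest fat cell marker level, rat 38 was the only high-dose female, so no count is given. Between the sexes, 0 members were under 0.05 with the slide as a random block and 2 with normexp, in place of 7. Between 1000 and 600 ppm 1 member was under the unadjusted threshold with normexp. For the heart slope the numbers were 3 with the slide block, 3 without 2 arrays and 10 without those 3 rats, and for the fat cell slope 0 in both alternatives. Leaving out each rat gave 1 to 3 members under the unadjusted threshold at 600 ppm (1 without control rats 3, 21 or 22 or low-dose rats 8 or 28), 0 to 5 at 1000 ppm (0 without control rat 21, 1 without control rats 2, 22 or 23 or middle-dose rat 13, 5 without control rat 1 or middle-dose rat 32) and 1 to 4 at 1500 ppm (1 without control rat 2 or high-dose rat 18, 4 without low-dose rats 7 or 26 or high-dose rat 37). In the sex difference it gave 1 to 6 (1 without control rats 1, 3, 21, 22 or 23 or high-dose rats 16, 17 or 37, 6 without high-dose rat 38). Pdk4 was under 0.05 each time, Acadvl was not in those cases with 1 member, and Acads was not in those cases nor without control rat 2, low-dose rat 27, middle-dose rat 31 or high-dose rats 18 or 36. No paired analysis was possible because each rat number belongs to 1 group. Levels far below the 75th percentile, such as those of Pdk4, Ehhadh and Ppara, rest on dim signals.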
